A study of Mus musculus with 6 samples.

Results

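The loci of 10 core pluripotency genes (Pou5f1, Nanog, Sox2, Klf4, Esrrb, Tfcp2l1, Zfp42, Prdm14, Lin28a and Tbx3) were read from a genome-wide table of CpG methylation. Members were all windows that overlapped a fixed interval around each gene on GRCm38, which gave 95 windows of 359192. They were spread unevenly, with 44 at Esrrb, 11 at Tfcp2l1, 8 at Prdm14, 7 at Lin28a, 5 each at Nanog, Sox2, Klf4 and Tbx3, 4 at Zfp42 and 1 at Pou5f1. The mean level, the counts of low and of methylated windows and the limma count are therefore also given without Esrrb, which leaves 51 windows.

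Methylation was profiled by enzymatic methyl-seq (EM-seq), in which enzymes instead of bisulfite convert unmodified cytosine, so that 5-methylcytosine and 5-hydroxymethylcytosine are read together and cannot be told apart. The samples were E14TG2a mouse embryonic stem cells (mESCs) of the 129/Ola strain, an unmodified line grown in serum with LIF. All cells had received a short pulse of the thymidine analogue EdU and ethanol fixation, and were then sorted on EdU and DNA content into G1 (3 libraries) and G2/M (3 libraries). Each library was made from 125 ng of DNA. The comparison asks whether the methylation that the new strand lacks after replication is established before division or only in the next G1. Every value is the percentage of CpG calls that were methylated in a window, averaged over cells and alleles. The files give no read counts, so the depth behind a value is unknown.

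Pou5f1 (which encodes Oct4), Sox2 and Nanog encode transcription factors at the centre of the network that maintains the pluripotent state. Klf4, Esrrb, Tfcp2l1, Tbx3 and Prdm14 encode further DNA-binding factors that sustain naive pluripotency, Zfp42 (Rex1) is a classical marker of that state, and Lin28a encodes an RNA-binding protein that blocks maturation of let-7 microRNAs. In mammalian genomes most CpGs are methylated, whereas CpG islands at promoters and active enhancers are usually low in methylation, and pluripotency genes with CpG-poor promoters gain methylation when they are silenced during development.

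Reference sequences of 300 bases around annotated starts (250 before and 50 after, RefSeq, GRCm38.p6) were found for 8 of the 10 genes. Prdm14 and Tbx3 had no entry. Shown are 5 of the 11 sequences, chosen to span the range of CpG content and of measured methylation. They are the upstream and the principal start of Esrrb (chr12:86360867-86361166 and chr12:86421394-86421693, plus strand), Nanog (chr6:122707239-122707538, plus strand), Lin28a (chr4:134018767-134019066, minus strand) and Klf4 (chr4:55532426-55532725, minus strand), each written 5′ to 3′ with CpGs in capitals.

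Esrrb upstream start: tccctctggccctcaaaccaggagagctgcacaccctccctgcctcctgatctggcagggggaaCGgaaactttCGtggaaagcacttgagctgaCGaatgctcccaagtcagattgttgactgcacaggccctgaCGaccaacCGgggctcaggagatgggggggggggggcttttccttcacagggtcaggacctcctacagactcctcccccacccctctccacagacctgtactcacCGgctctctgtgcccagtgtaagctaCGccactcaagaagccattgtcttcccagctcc

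Esrrb principal start: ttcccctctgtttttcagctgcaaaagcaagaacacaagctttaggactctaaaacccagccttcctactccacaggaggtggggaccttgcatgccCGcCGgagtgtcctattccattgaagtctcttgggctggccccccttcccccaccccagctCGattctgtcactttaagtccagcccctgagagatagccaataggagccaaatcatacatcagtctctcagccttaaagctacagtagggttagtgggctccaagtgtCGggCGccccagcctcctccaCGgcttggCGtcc

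Nanog: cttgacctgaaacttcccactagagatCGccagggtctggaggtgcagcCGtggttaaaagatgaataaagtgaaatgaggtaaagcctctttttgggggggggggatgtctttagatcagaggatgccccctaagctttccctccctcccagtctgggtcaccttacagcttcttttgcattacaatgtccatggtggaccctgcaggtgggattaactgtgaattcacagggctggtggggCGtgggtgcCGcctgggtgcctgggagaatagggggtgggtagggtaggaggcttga

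Lin28a: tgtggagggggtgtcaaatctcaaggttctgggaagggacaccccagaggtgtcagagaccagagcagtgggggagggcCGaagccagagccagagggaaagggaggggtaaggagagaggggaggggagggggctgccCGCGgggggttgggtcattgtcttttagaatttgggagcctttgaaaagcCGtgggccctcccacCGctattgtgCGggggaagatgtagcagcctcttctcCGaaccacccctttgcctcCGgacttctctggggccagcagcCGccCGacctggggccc

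Klf4: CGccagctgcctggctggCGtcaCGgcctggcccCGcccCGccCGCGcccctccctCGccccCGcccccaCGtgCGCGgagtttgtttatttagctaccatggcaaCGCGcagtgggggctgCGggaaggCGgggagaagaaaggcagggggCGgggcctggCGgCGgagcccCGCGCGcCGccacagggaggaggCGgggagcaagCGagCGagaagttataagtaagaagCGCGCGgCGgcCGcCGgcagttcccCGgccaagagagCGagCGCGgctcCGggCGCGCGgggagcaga

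The Nanog sequence holds 4 CpGs, and 68.6% of the 32851 mouse promoters in the table hold as many or more. Both Esrrb sequences hold 7 CpGs, which is the median of the table. Lin28a holds 10 CpGs. Klf4 is a CpG island by comparison, with 40 CpGs, a count reached by 3.91% of promoters, and a GC content of 74.3% against a median of 52.7%. Of the members not shown, Sox2 holds 27 CpGs, Tfcp2l1 21 and Zfp42 11.

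The core loci were much less methylated than the genome as a whole. The member windows averaged 38.3% ± 2.74 (SD over 6 libraries) against 63.9% ± 3.93 for all windows, and 31.2% ± 2.07 without Esrrb. Windows that hold the start of any protein-coding gene averaged 41.3% ± 2.67, close to the member windows. A mean under 20% was found for 35 of 95 member windows (36.8%), for 3.50% of all windows and for 27.8% of the 14803 windows that hold the start of a protein-coding gene. Without Esrrb it was 22 of 51 (43.1%). In 28 of the 35, no library reached 20%. At the other end, 40 member windows (42.1%) had a mean of 50% or more (16 of 51 without Esrrb), against 87.6% of all windows.

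Low methylation at these genes was not limited to CpG-dense windows. CpG density and methylation were related across the member windows (Pearson's r = -0.49, n = 95) as across all windows (r = -0.53), where windows share libraries and neighbours. Within a class of density, however, the member windows were more often low. Among windows with fewer than 10 CpGs per kb, 3 of 23 member windows were under 20% (13.0%), against 0.146% of all such windows. With 10 to 15 CpGs per kb the counts were 11 of 41 (26.8%) against 1.16%, with 15 to 20 they were 5 of 12 (41.7%) against 4.37%, and with 20 to 30 they were 7 of 10 (70%) against 16.9%. All 9 member windows with 30 or more CpGs per kb were low, as were 78.2% of all windows of that density. The low member windows were correspondingly long and CpG-poor, with medians of 3227 bp and 16.8 CpGs per kb, compared with 1575 bp and 34.8 CpGs per kb for all low windows. The density classes were chosen after the values had been seen, and these shares are a description.

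**Figure D1:**
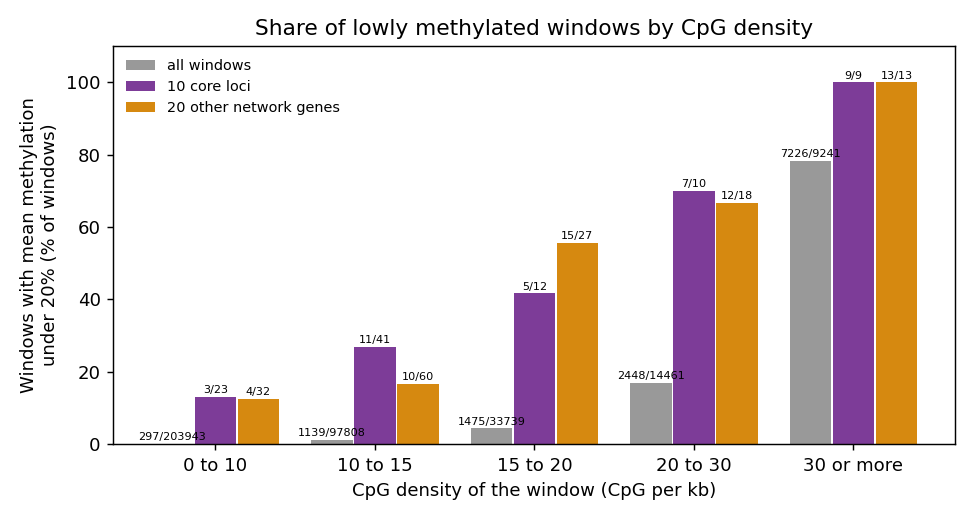
Share of windows (vertical axis, % of windows) with a mean methylation under 20% over 6 libraries, by CpG density of the window (horizontal axis, CpGs per kb), for all windows (grey), the 10 core loci (purple) and 20 other network genes (orange). Labels give the low windows over all windows of the class, and in the class under 10 CpGs per kb the core loci reach 13.0% where all windows reach 0.146%.

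By locus, Zfp42 and Sox2 had the lowest means and Pou5f1 the highest. Over the 6 libraries, mean methylation was 9.88% ± 2.56 (SD) at Zfp42, 10.5% ± 1.91 at Sox2, 18.7% ± 2.49 at Tbx3, 22.1% ± 3.99 at Nanog and 28.6% ± 2.92 at Lin28a. It was 38.2% ± 2.01 at Klf4, 41.5% ± 3.13 at Prdm14, 46.6% ± 3.77 at Esrrb, 46.8% ± 4.49 at Tfcp2l1 and 55% ± 11.9 at Pou5f1. Neighbours in this order kept it in all 6 libraries for Sox2 below Tbx3, Nanog below Lin28a, Lin28a below Klf4, and Prdm14 below Esrrb. The remaining neighbours changed places in at least 1 library. Zfp42 and Sox2 (4 of 6 in this order), Tbx3 and Nanog (4 of 6), Esrrb and Tfcp2l1 (3 of 6) and Tfcp2l1 and Pou5f1 (4 of 6) could not be ordered. These means depend on how far each interval reaches into flanking sequence, and at Tbx3 the windows covered only 46.1% of the interval.

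**Figure D2:**
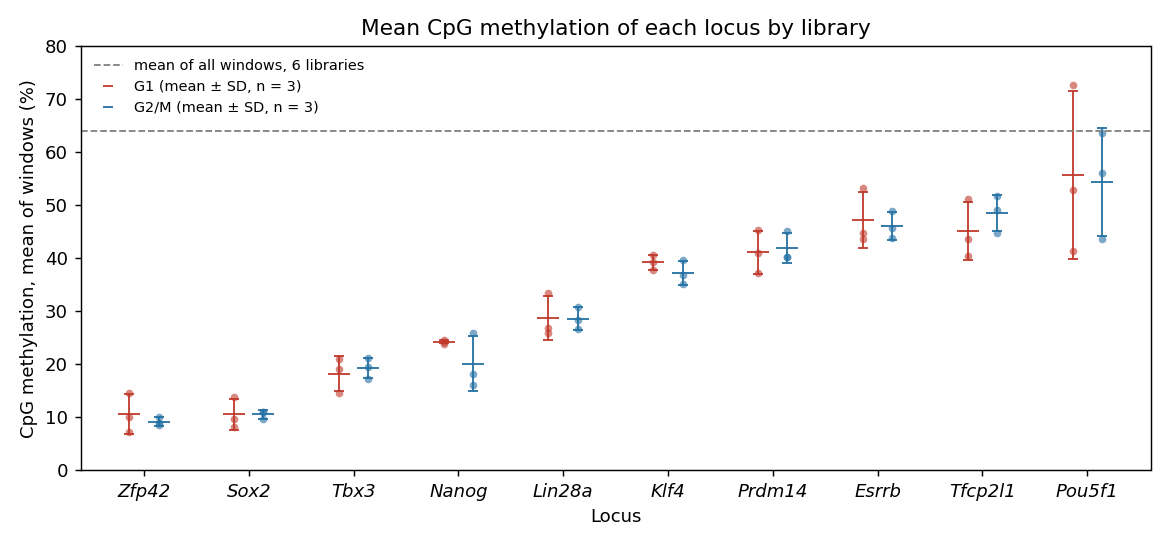
Mean CpG methylation over the windows of each locus (vertical axis, %) for the 10 loci in order of their mean (horizontal axis). Points are the 3 libraries of G1 (red) and of G2/M (blue), bars are means ± SD, and the dashed line is the mean of all windows (63.9%), which lies above the mean of every locus.

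The value for Pou5f1 was not specific to that gene. Its only window spanned 188569 bp (chr17:35394920-35583488) and held 2586 CpGs, where the median window had 5817 bp and 51 CpGs. Besides Pou5f1 it took in 8 protein-coding genes, among them the H2-Q class Ib histocompatibility genes H2-Q6, H2-Q7 and H2-Q10 and the neighbours Tcf19 and Cchcr1. The libraries read 52.8%, 41.4% and 72.7% in G1 against 56%, 43.5% and 63.6% in G2/M, the widest spread of the 10 loci. No statement on the Pou5f1 promoter or its enhancers can be drawn from these values.

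Start sites were covered unevenly as well. The start of the principal transcript fell between windows at Sox2, Klf4, Tfcp2l1, Zfp42 and Tbx3, as it did for 26.8% of 21853 protein-coding genes. The uncovered stretch held 208 CpGs over 2909 bp at Sox2, 171 CpGs over 1770 bp at Klf4 and 174 CpGs over 2592 bp at Tbx3. Tfcp2l1 lacked 1132 bp with 50 CpGs and Zfp42 4054 bp with 80 CpGs. The Klf4 sequence printed above lies in such a stretch, and its own methylation was not measured.

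Of the 5 genes with a measured start, the start window of Prdm14 was almost free of methylation. It read 0%, 0% and 2.34% in G1 against 0%, 1.19% and 5.36% in G2/M, a mean of 1.48% ± 2.12 (SD, n = 6), and 10.7% of promoter windows of protein-coding genes were at or below it. The Lin28a start window averaged 8.15% ± 4.42, with 1.16%, 5.95% and 12.5% in G1 against 8.11%, 8% and 13.2% in G2/M. Nanog averaged 13.9% ± 6.89, although its printed sequence is poorer in CpGs than most promoters. In all 3 windows methylation was below the median promoter window of 46.1%.

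Esrrb has 4 annotated coding starts, and the upstream and the principal one each lay in a measured window. The window at the upstream start was highly methylated at 66.7% ± 11 (SD, n = 6), and the one that ends just past the principal start, 60.5 kb further on, averaged 45.3% ± 9.35. The next window, which begins 0.127 kb downstream of the principal start and packs 50 CpGs into 729 bp, averaged 1.86% ± 2.26. It holds a further annotated coding start, 0.239 kb downstream of the principal one. Methylation thus fell from about the level of the median promoter to near 0 at the edge of the CpG-dense sequence that follows the principal start.

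Where the start itself was not measured, the flanking windows were mostly low. At Sox2 the windows before and after the uncovered stretch averaged 4.41% and 0%, at Zfp42 7.22% and 5.50%, and at Tbx3 10.6% and 9.79%. Klf4 was asymmetric, with 27.9% ± 4.40 before the start and 0% in all 6 libraries within the gene. Tfcp2l1 was the exception, with 40.9% ± 7.39 before and 24.2% ± 11.8 after. These windows differed in length, with 11564 and 5152 bp at Tfcp2l1, 1347 and 1969 bp at Tbx3, and 14109 and 6454 bp at Zfp42. The level at the Tfcp2l1 start itself is not known. In all, 3 member windows were listed at 0% in all 6 libraries, 1 each at Sox2, Klf4 and Lin28a. Each overlapped an exon and was the first window after the start, or after the window that holds it. The labels describe all values as above 0, and whether a listed 0% is a measured level or a missing estimate was not tested. Of the 5545 windows listed at 0% in at least 1 library, 5539 had a mean under 20%. That count includes 1368 windows at 0% in all 6 libraries, whose mean is 0% in either case.

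**Figure D3:**
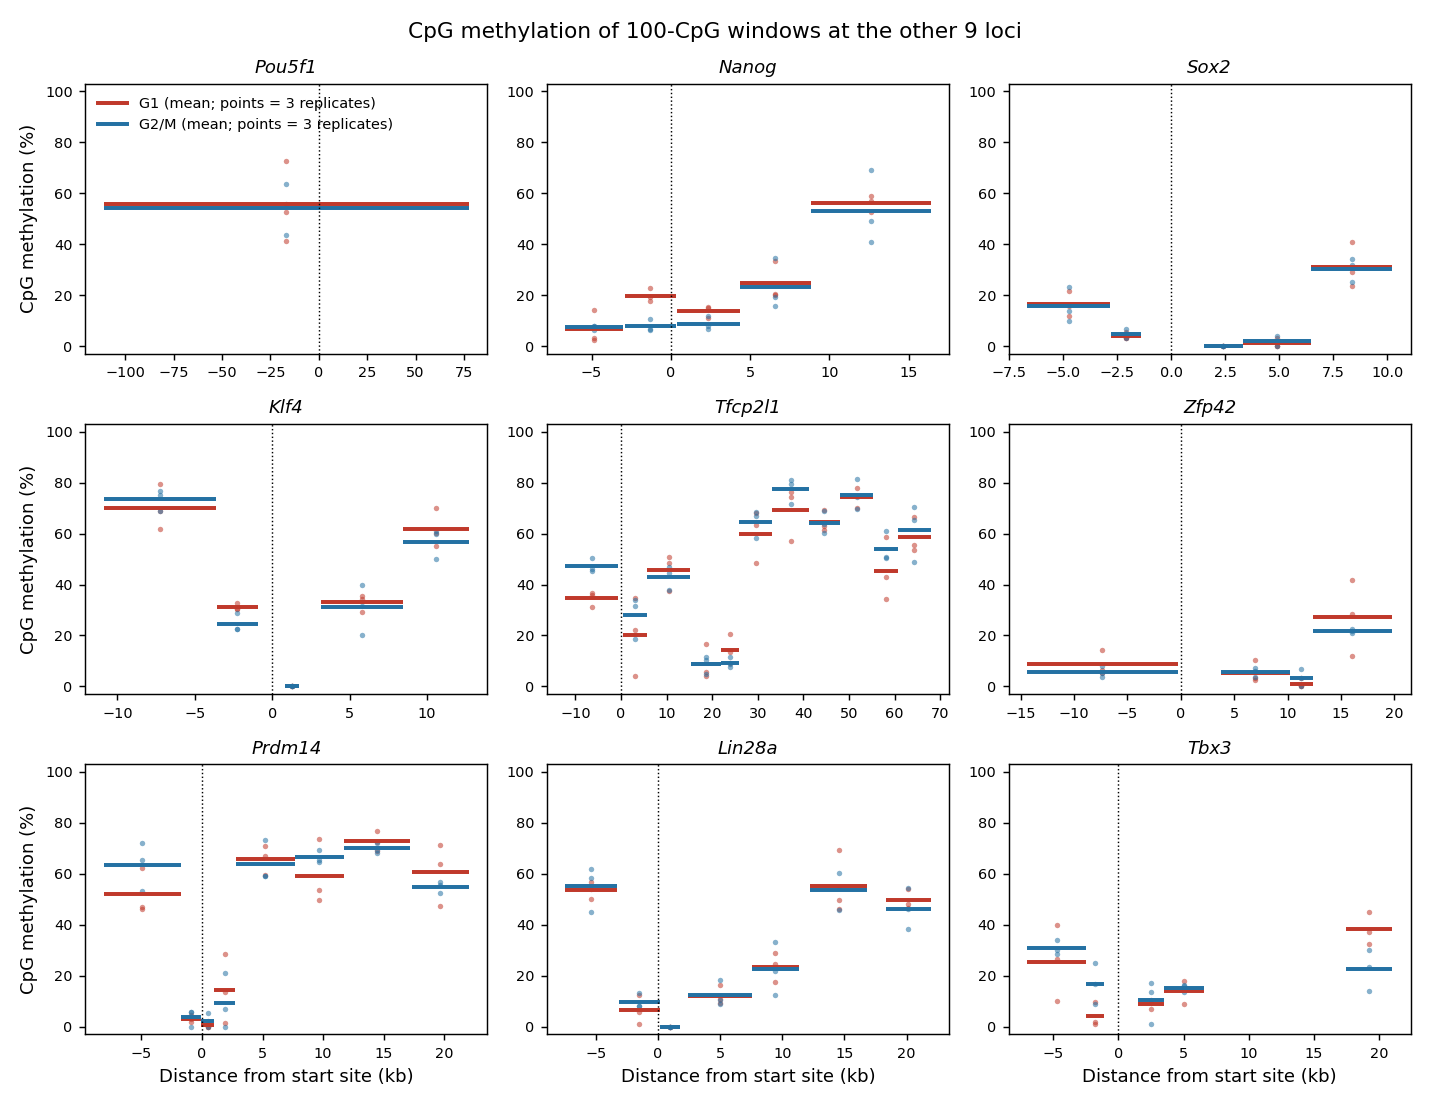
CpG methylation (vertical axis, %) along 9 loci by distance from the principal start (horizontal axis, kb in the direction of transcription, dotted line at 0). Each bar spans 1 window at the mean of G1 (red) or G2/M (blue), points are the 3 libraries, and gaps are stretches without a window. At Sox2, Klf4, Prdm14, Lin28a and Tbx3 the lowest window holds the start or is the first after it, whereas the low windows of Tfcp2l1 lie 15.2 to 25.9 kb inside the gene.

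Esrrb carried the longest low stretch of the 10 loci, and it lay inside the gene, downstream of the principal start. In 10 consecutive windows (chr12:86466253-86510062), 44.6 to 88.4 kb downstream of the principal start, methylation averaged 7.42%, 6.34% and 8.84% in the G1 libraries and 6.92%, 5.62% and 9.24% in those of G2/M. The libraries lay close together, and 59 of the 60 values were under 20%. The single higher value was 25%, in replicate 3 of G2/M. The 10 windows covered 40.3 kb of the 43.8 kb, which is 27.3% of the annotated gene.

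Single windows within the stretch ranged from 0.327% to 19.3%. The lowest (chr12:86470156-86472126) was at 0% in 5 libraries and 1.96% in the sixth, and held an exon. Another annotated coding start of Esrrb, 48.5 kb downstream of the principal one, lies just before that window, in a window of 10.7% ± 5.09. The span of the stretch included exons 2 to 5 of the 7 exons of the principal transcript. Only 3 of its windows held an exon, 1 each, so not all of these exons lay in a measured window.

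Sequence on both sides of the stretch was methylated. The 29 Esrrb windows before it averaged 59.4% ± 4.56 (SD, n = 6) and the 5 after it 50.9% ± 6.75. The adjoining windows read 28.5% upstream and 40.6% downstream, so that the edges were graded. Median CpG density was 12.8 per kb inside, 13.1 per kb before and 14.1 per kb after, so the stretch was no richer in CpGs than its surroundings. Across the genome, windows under 20% formed 9118 runs of successive windows, of which 72.3% were single windows. Runs were joined across stretches without a window, so their lengths include unmeasured sequence. Only 3 runs, this one included, had 10 or more windows, and only 2, again with this one, were as long.

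**Figure D4:**
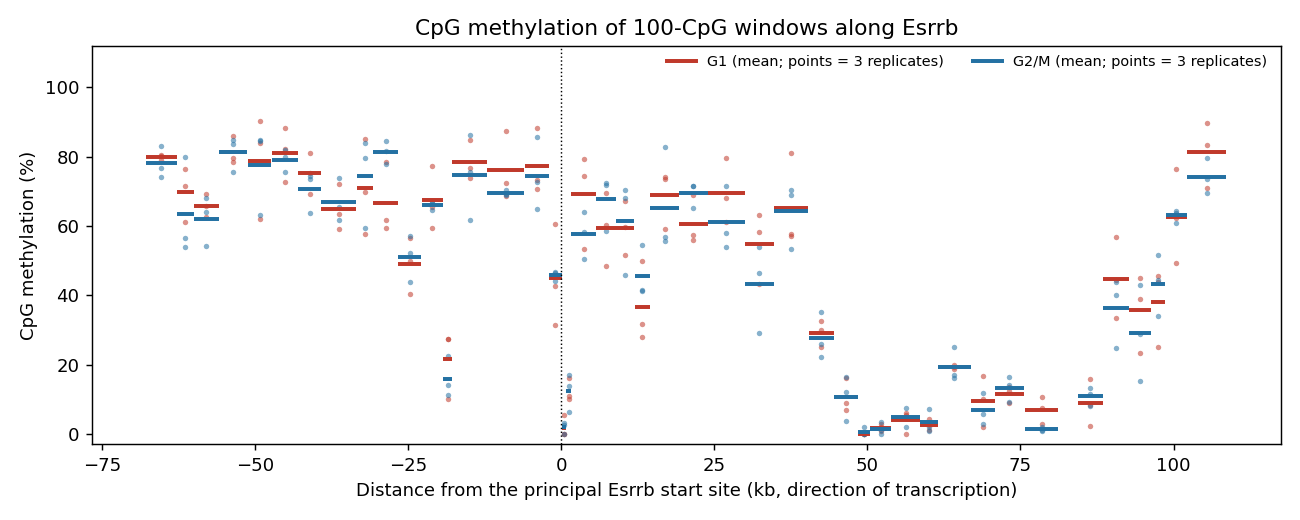
CpG methylation (vertical axis, %) in the 44 windows of the Esrrb locus by distance from the principal start (horizontal axis, kb in the direction of transcription, dotted line at 0). Bars span the windows at the mean of G1 (red) or G2/M (blue) and points are the 3 libraries of each. Means under 20% stand in 1 window 17.8 to 19.2 kb before the start (18.8%), in the 1.53 kb after it and in the stretch from 44.6 to 88.4 kb, where windows average 7.40%.

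Runs of low windows were found at every locus but Pou5f1, 11 runs in all. Zfp42 had 3 windows over 26.7 kb at 4.99% ± 0.941 (SD, n = 6), a length reached by 13 of the 9118 runs, itself included. Windows covered 22.7 kb of it. The larger part of its span was an upstream window of 14109 bp that held 398 CpGs, where the median window has 51. Sox2, a gene of 1 exon, lay in a run of 6 windows over 16.1 kb at 8.69% ± 2.19, of which windows covered 13.2 kb. At Nanog the run spanned 11 kb (10.7% ± 3.14), at Lin28a 10.7 kb (6.85% ± 2.30), at Tbx3 9.03 kb (11.7% ± 3.27) and at Prdm14 4.50 kb (5.67% ± 4.34). At Tbx3 windows covered 6.43 kb of the span.

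Tfcp2l1 resembled Esrrb in that its low windows were intragenic. The pair of windows 15.2 to 25.9 kb downstream of the start averaged 10.3% ± 4.36, and held 10 CpGs per kb. The window before them averaged 44.3% and the one after 62.2%. Esrrb had 2 shorter runs besides, a pair of windows just after the principal start (7.14% ± 2.05) and a single window upstream of it at 18.8% ± 8.01, where 3 of the 6 libraries were above 20%. Klf4 had a single low window of 0.907 kb, between windows of 27.9% and 32.0%.

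Between G1 and G2/M the core loci as a whole did not separate. The mean over the member windows was 36.6%, 36.3% and 42.6% in G1 (38.5% ± 3.56, SD, n = 3) and 36.9%, 36.6% and 40.9% in G2/M (38.1% ± 2.44). A difference of 0.376 percentage points resulted, which was smaller than either SD, and that over all windows was 0.872. The SDs include level differences between replicates that both phases share. Same-numbered pairs (G1 minus G2/M) differed by -0.301, -0.247 and 1.67 percentage points at the member windows, without a common sign. Over all windows they differed by 1.28, 0.640 and 0.699. The groups overlapped. Replicate 3 was the highest of both phases, at the member windows (41.8%, mean of both phases, against 36.7% and 36.5% in replicates 1 and 2) as over all windows (68.8% against 62.5% and 60.5%). It was highest at 8 of the 10 loci, and lowest at Zfp42 and Tbx3.

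No single locus passed a two-sided exact permutation test over the 20 ways to divide 6 libraries, which cannot give a p below 0.10. G1 was higher at 6 loci and G2/M at 4. Nanog had the largest difference, 24.5%, 24.2% and 23.9% in G1 against 16.1%, 18.1% and 26% in G2/M, a gap of 4.12 percentage points (exact permutation p = 0.4). It was carried by replicates 1 and 2, and replicate 3 went the other way. At Tfcp2l1 G2/M was higher in all 3 same-numbered pairs (G1 minus G2/M of -4.42, -5.30 and -0.56 percentage points), and the means were 45.0% ± 5.46 and 48.5% ± 3.43 (exact permutation p = 0.4). Klf4 differed by 1.99 percentage points (exact permutation p = 0.3). The other 7 loci had differences between -1.03 and 1.49 percentage points, with exact permutation p from 0.6 to 1. With the median over windows in place of the mean, the gap was 8.96 percentage points at Nanog and -7.10 at Tbx3 (exact permutation p = 0.1 for both, the smallest possible), and -4.14 at Prdm14 (exact permutation p = 0.2).

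In a fit across all 359192 windows with limma, no member window had an adjusted p under 0.05, as was the case for all but 8 windows of the genome (0.00223%). At an unadjusted p under 0.05 there were 6 member windows (6.32%, background 2.11%), 3 with more methylation in G1 (background 1.36%) and 3 with more in G2/M (background 0.75%). Without Esrrb there were 4 of 51 (7.84%). With same-numbered libraries as blocks, 8 member windows had an unadjusted p under 0.05 in limma (8.42%, background 4.83%) and none an adjusted p under 0.05. The phases did not overlap in 5 member windows, of which 4 were higher in G1 (4.21%, background 4.12%) and 1 in G2/M (1.05%, background 1.98%). All 3 same-numbered differences favoured G1 in 10 member windows (10.5%, background 16.3%) and G2/M in another 10 (10.5%, background 9.74%). Low windows were called more often than others in the whole table too, with an unadjusted p under 0.05 for 11.1% of all windows under 20% and for 8.57% of the 35 low member windows.

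The smallest p with more methylation in G1 was at the Nanog start window (chr6:122704653-122707879). It read 17.6%, 19.1% and 22.7% in G1 against 6.64%, 10.8% and 6.38% in G2/M, and the phases did not overlap. The difference was 11.9 percentage points (limma, unadjusted p = 0.00135, adjusted p = 1), so it did not hold against the number of windows tested. The window after it, in the gene, read 15.5%, 11.1% and 15.0% in G1 against 7.84%, 6.85% and 11.7% in G2/M, where the phases overlapped. Over the low run of 3 windows at Nanog, which includes this start window, G1 averaged 13.4% ± 1.35 and G2/M 8.04% ± 0.980.

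The smallest p with more methylation in G2/M was at Tbx3, in the window that ends 1.09 kb before the start (chr5:119668235-119669581). It read 1.25%, 9.68% and 1.79% in G1 against 8.97%, 25% and 16.7% in G2/M, higher in all 3 pairs but with overlapping groups (limma, difference of -12.6 percentage points, unadjusted p = 0.0066, adjusted p = 1). The Tbx3 low run, which includes that window, averaged 9.07% ± 2.21 in G1 and 14.3% ± 1.21 in G2/M. Since both runs hold a window picked for its difference, these values are a description. Downstream of Tbx3 (chr5:119688117-119691660) the sign turned again, with 38.3% in G1 against 22.5% in G2/M (limma, unadjusted p = 0.0288, adjusted p = 1).

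Among the other windows, Esrrb had 66.6% in G1 against 81.4% in G2/M at chr12:86390975-86395071, upstream of the principal start and within the longer transcript (limma, unadjusted p = 0.031, adjusted p = 1). The window before the Tfcp2l1 start (chr1:118615718-118627281) had 36.5%, 31.2% and 35.9% in G1 against 50.4%, 45.2% and 46.1% in G2/M, without overlap (limma, unadjusted p = 0.049, adjusted p = 1). The sixth window, named after its values were seen, lies in the low stretch of Esrrb (chr12:86497448-86502742) and read 10.7%, 2.70% and 7.52% in G1 against 0.926%, 2.08% and 1.14% in G2/M (limma, unadjusted p = 0.0029, adjusted p = 1). Over that stretch as a whole the phases differed by 0.271 percentage points, less than the SD of either phase. Its same-numbered pairs (G1 minus G2/M) differed by 0.498, 0.715 and -0.402.

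**Figure D5:**
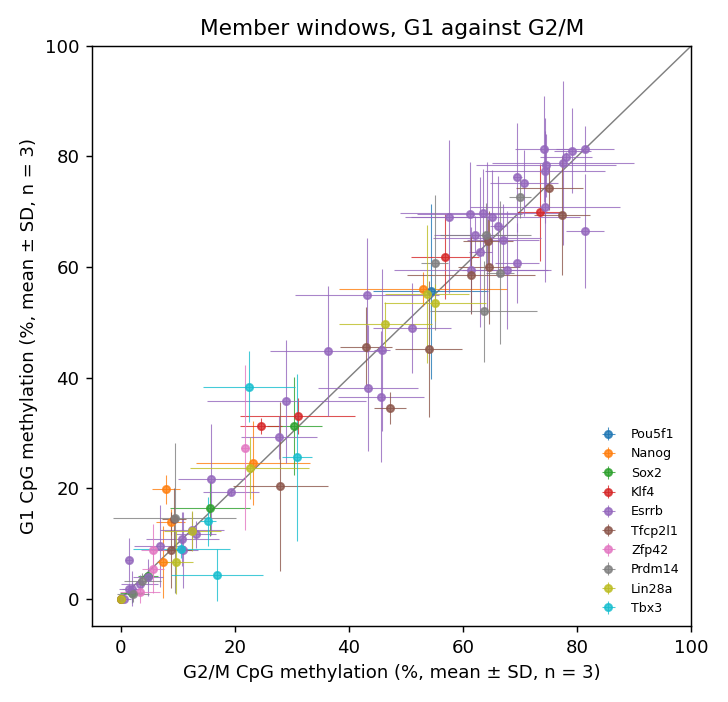
Mean CpG methylation of the 95 member windows in G1 (vertical axis, %) against G2/M (horizontal axis, %), coloured by gene, with bars of ± SD over 3 libraries and the line of equal values. The windows scatter about the line over the whole range, and those farthest from it, at Tbx3, Esrrb, Tfcp2l1 and Nanog, have adjusted p of 1.

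Replicates varied more than phases in some windows. In the first intragenic window of Prdm14 after the start window (chr1:13124401-13126134), singled out after its values were seen, G1 read 1.64%, 13.5% and 28.7% and G2/M 0%, 7.14% and 21.2% for replicates 1, 2 and 3. Same-numbered libraries differed by 1.64, 6.32 and 7.56 percentage points, each less than the range over the 3 replicates of either phase, with G1 the higher in each pair. The unadjusted limma p was 0.455 without and 0.011 with the replicate block, and the adjusted p was 1 and 0.894. Across the member windows the libraries nevertheless correlated, with Pearson's r between 0.93 and 0.95 for pairs of libraries, against 0.82 to 0.87 over all windows. Member levels were also spread more widely, so the higher r does not show closer agreement. The median SD of a window within G1 was 6.52 at the members and 6.75 over all windows, and within G2/M 4.98 and 6.47.

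A further 20 genes of the pluripotency network, among them Dppa2, Tdgf1, Sall4 and Myc, gave similar levels. Their 150 windows (gene with 5 kb on either side, none shared with the core loci) averaged 38.1%, and 36.0% were under 20%. The median locus mean was 29.4%, compared with 33.4% for the core loci. The start lay in a window for 15 of the genes, with a mean under 20% at 11 and between 20% and 50% at 4. None reached 50%, which 46.6% of promoter windows of protein-coding genes did. The lowest were Utf1, a chromatin-associated factor of undifferentiated cells, and Myc, both listed at 0% in all 6 libraries, and Tdgf1, a co-receptor of Nodal, at 0.278% ± 0.680 (SD, n = 6). G1 was higher at 13 of the 20 genes and G2/M at 7, and no gene had an exact permutation p below 0.4. In limma, 12 of the 150 windows (8%, background 2.11%, and 11.1% among all windows under 20%) had an unadjusted p under 0.05 and none an adjusted p under 0.05.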

How the data were processed

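EM-seq libraries of G1 and G2/M mESCs (3 biological replicates each) were sequenced by the authors as 75 bp paired ends, trimmed with Trim Galore 0.6.4, aligned to GRCm38 with Bismark 0.22.1 and Bowtie2, freed of duplicates and of reads with a mapping quality under 20, and quantified over windows of 100 CpG cytosines in which at least 1 in 5 was observed in all datasets. What the authors deposited is the percent CpG methylation of each window in each library. No counts or coverage accompany them, so no interval or coverage minimum could be applied.

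The members and gene lists were chosen with earlier results of these data known. Windows were annotated with GENCODE vM21 and CpGs counted in GRCm38. The principal transcript was that tagged by APPRIS, or else the longest coding one. Means over windows were taken per library and compared by two-sided exact permutation tests. limma 3.58.1 in R 4.3.3 (lmFit, eBayes with trend) was run on log2((percentage + 1)/(100 - percentage + 1)) and p-values were adjusted by Benjamini-Hochberg across the whole table, after a test on simulated data. In that test 200 windows were changed. At an adjusted p under 0.05, 0 were recovered for a log2 change of 1 or of 2, and 54 for a change of 4. Because the deposited table holds percentages, the authors' logistic regression on read counts could not be repeated. Same-numbered libraries were treated as matched because the study describes matched replicates from each sort, although their deviations from the group means correlated only weakly (r = 0.03, 0.03 and 0.05 over all windows). Single windows were named by rule, as the start, lowest and highest windows of a locus and those with the smallest p or the largest difference of one sign in all pairs. Alternatives were the replicate block, centred libraries, medians, weighting by length, windows centred in the locus, another offset, the percent scale, no trend, a filter on extreme windows and leaving out libraries. Replicates are separate samples by the labels.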

Additional observations from a re-analysis of the deposited data

How the results depend on the processing

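The direction of the phase difference held under every alternative tried for Nanog (2.02 to 7.22 percentage points when 1 replicate was left out) and Tfcp2l1 (-4.86 to -2.49), and changed for the other 8 loci. Leaving out replicate 3 turned it at Pou5f1 (range over the left-out replicates -2.68 to 3.45), Esrrb (-0.57 to 2.10), Lin28a (-1.13 to 0.90) and Tbx3 (-3.41 to 1.74). Leaving out replicate 1 turned it at Zfp42 (-0.82 to 3.69) and Prdm14 (-1.43 to 0.43), and leaving out replicate 1 or 2 at Sox2 (-1.43 to 0.70). Centred libraries gave -0.029 at Esrrb and -0.99 at Lin28a, medians -0.59 at Klf4 (and, with the sign kept, 8.96 at Nanog, -5.79 at Tfcp2l1, -4.14 at Prdm14 and -7.10 at Tbx3), weighting by length 0.13 at Sox2 and 0.50 at Tbx3, and windows centred in the locus 0.044 at Prdm14. The last setting gave 4.39 at Nanog with an exact permutation p of 0.1, the smallest possible. The cause was not tested.

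Over the 5 start windows, the long Pou5f1 window among them, the difference was 1.54 percentage points. G1 was higher in 2 of them and G2/M in 3, with a median difference of -0.80 and the largest, 11.9, at Nanog. The difference was -1.21 when windows that flank a start were added, an alternative chosen after seeing the data, as were those without Pou5f1 or Esrrb. Over the start windows the range without 1 replicate was -1.30 to 3.55, and over all member windows -0.27 to 0.71. The difference over all member windows turned to -0.20 without Esrrb, -0.70 with centred libraries, -0.15 as a median and -0.27 without replicate 3, all within the spread between replicates.

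With the replicate block, 8 member windows had an unadjusted p under 0.05 in limma (background 4.83%) instead of 6. Again 0 had an adjusted p under 0.05. The sets of windows differed. The window downstream of Tbx3 dropped out (limma with block, unadjusted p = 0.052). The window after the Nanog start window (0.045), the Prdm14 start window (0.026) and the window after it (0.011) came in. Over the whole table, adjusted calls went from 8 to 0. Leaving out 1 library gave 4 to 9 member windows with an unadjusted p under 0.05 and 0 adjusted calls. The adjusted p of the Nanog start window lay between 0.894 and 1 over all fits, and that of the Tbx3 window before the start between 0.663 and 1. A threshold of 10% in place of 20% left 22 low member windows of 35 (23.2%, against 2.13% of all windows), and leaving out 1 library left 34 to 35. A stricter coverage minimum was not run, since the table holds no coverage.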
